A study of Mus musculus with 24 samples.

Results

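Fluorescent glioma cells were compared with the non-fluorescent cells around them in 4 mice of the early symptomatic stage, which gave 8 of the 24 libraries of the series. The 4 glioma and 4 surrounding libraries are those whose column names end in the letters of that stage, and all genes were described. Every mouse received PDGFB by somatic gene transfer in utero, into the ventricles of the embryonic telencephalon, so no library comes from a brain without the transgene. The mice 3108C, 3108D, 3109D and 3145A showed symptoms when they were killed at 43, 43, 50 and 35 days after transduction. Tumours were dissected under fluorescence and the cells were separated by sorting on fluorescence alone, so a surrounding library holds any sorted cell without it. The labels give neither strain nor promoter, and a code is taken to be 1 mouse. The other 16 libraries, 8 asymptomatic and 8 late symptomatic, enter only the comparison of stages.

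PDGFB is a growth factor that activates the receptors Pdgfra and Pdgfrb. Pdgfra marks oligodendrocyte precursor cells (OPC), dividing glial cells that give rise to the myelinating oligodendrocytes, and gliomas driven by PDGFB are known for their likeness to OPC. The tissue around such a tumour holds microglia, which are the resident macrophages of the brain, as well as macrophages from blood, vessels, meningeal cells, oligodendrocytes and astrocytes.

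The libraries held 9270455 to 14231773 counts each. On the first principal component, with 65.1% of the variance, glioma libraries lay at -77.3 to -60.6 and surrounding libraries at 46.2 to 107. On the second, with 13.7%, both libraries of 3108C stood apart, the glioma one at -58.5 and the surrounding one at -48.9, against 8.41 to 26.5 for the others. Transcripts of the sex chromosomes differed between the glioma and the surrounding library of code 3108D, and likewise for 3109D. Xist, transcribed from the inactive X chromosome, was at 899, 1615, 1.86 and 490 CPM, counts scaled to the size of the library, in the glioma libraries 3108C, 3108D, 3109D and 3145A, and at 684, 2.22, 1137 and 998 CPM in the surrounding ones. Ddx3y, a gene of the Y chromosome, was at 64.2 CPM in glioma 3109D and 66.2 CPM in surrounding 3108D, and at most 0.67 CPM in the other 6. Over 15578 autosomal genes the deviation of glioma 3108D from its group correlated at r = 0.503 with surrounding 3109D and at 0.0721 with surrounding 3108D. Glioma 3109D gave 0.359 with surrounding 3108D and 0.0556 with surrounding 3109D, while 3108C and 3145A gave 0.508 and 0.466 within their codes. These are correlations across genes, which are not independent. The groups were therefore compared unpaired, and a fit with the mouse as a block and these codes exchanged is given where it changes the call of a gene described or moves the calls of a list by more than 1.5 times. That exchange was chosen from these libraries.

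Throughout, 4 values are those of 3108C, 3108D, 3109D and 3145A, in CPM scaled over the 8 libraries. A fold change is log2 of glioma over surrounding cells ± its standard error, from 4 against 4 libraries. A gene is called, and said to rise or fall in glioma cells, at an adjusted p under 0.05 over all 16288 genes tested (edgeR's quasi-likelihood test, Benjamini-Hochberg adjustment). P-values measure the spread between these libraries. In sorted bulk cells, fewer cells of a type and less RNA per cell cannot be told apart. A filter removed genes of low counts before the test. Any gene near 0 in glioma cells passed it through surrounding counts, which favours lower values in glioma cells.

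Most of the called genes were lower in glioma cells than in surrounding cells. Of the genes tested, 2004 (12.3%) fell and 378 (2.32%) rose in glioma cells. The median log2 fold change of the genes that fell was -3.17, and 802 of them were more than 16-fold lower. The genes that rose had a median of 0.86, only 85 of them were more than 2-fold higher, and none exceeded 16-fold. The genes that fell held 2.82 to 3.1% of the counts in glioma libraries and 10.5 to 20.1% in surrounding libraries, while those that rose held 5.68 to 6.58% in glioma libraries and 2.18 to 3.74% in surrounding libraries. The 4 glioma and 4 surrounding libraries did not overlap for 1943 of the genes that fell and 359 of those that rose. Among all genes tested, the groups did not overlap for 14.5% with glioma cells lower and for 7.18% with glioma cells higher. Over all genes tested the median fold change was 0.07.

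The genes that rose depended on single libraries more than those that fell. Their number was 157 without glioma 3108C, 162 without surrounding 3109D, 185 without glioma 3145A, 187 without surrounding 3145A, 198 without glioma 3109D, 239 without glioma 3108D, 248 without surrounding 3108C and 319 without surrounding 3108D. The number that fell stayed between 1850 and 2123 in those fits. With the mouse as a block and 3108D and 3109D exchanged, 1981 genes (12.2%) rose and 2729 (16.8%) fell, among them all 378 and 1991 of those called above. Without both libraries of both codes, 6 rose and 869 fell.

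**Figure D1:**
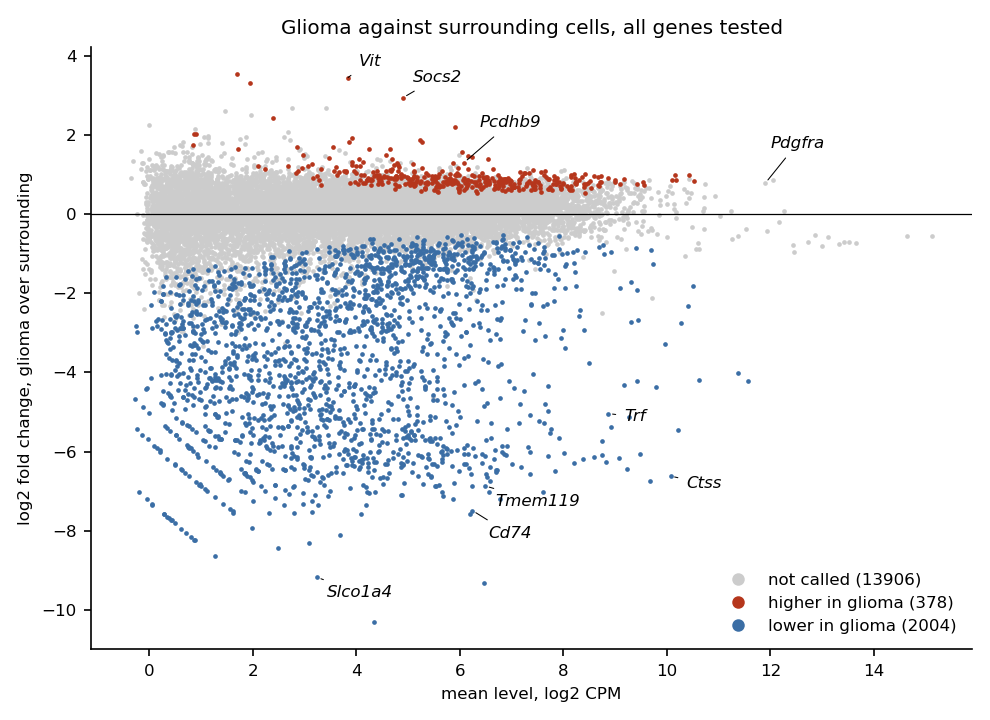
Log2 fold change of glioma over surrounding cells (vertical axis) against mean log2 CPM (horizontal axis) for the 16288 genes tested, 1 point a gene. The 378 genes called higher in glioma cells lie close above 0, whereas the 2004 called lower reach down to -10.3.

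Vit led the genes that rose among those averaging 3 or more in log2 CPM. It encodes vitrin, a protein of the extracellular matrix, and lies on chromosome 17 at 78508064 to 78627408 (GRCm38, plus strand). Vit had 35.6, 15.0, 25.7 and 26.5 CPM in glioma cells, against 1.64, 3.07, 3.06 and 1.61 CPM in surrounding cells, a fold change of 3.45 ± 0.36 (adjusted p = 7.63e-05). Every glioma library was well above every surrounding library. Socs2, a suppressor of cytokine and growth hormone receptor signals on chromosome 10 (95385362 to 95417180, minus strand), had 96.2, 38.8, 36.9 and 37.7 CPM in glioma cells, against 16, 4.02, 4.73 and 2.95 CPM in surrounding cells. Its fold change was 2.94 ± 0.56 (adjusted p = 0.00407), with both 3108C libraries the highest of their groups. Col19a1, a collagen of basement membrane zones, had 55.6, 65.1, 54.1 and 58.1 CPM in glioma cells, against 10.2, 20, 15 and 18.1 CPM in surrounding cells (1.87 ± 0.23, adjusted p = 2.00e-04). The glioma libraries were close to each other and did not overlap the surrounding ones.

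St6gal2, which adds sialic acid to glycans, rose by 2.2 ± 0.49 (adjusted p = 0.0104), and Atp10b, a phospholipid flippase, by 1.93 ± 0.29 (adjusted p = 7.81e-04). Tmem26 and Fam174b, which encode membrane proteins, both rose by 1.82. Tenm2, a teneurin that joins neurons at synapses, rose by 1.69 ± 0.38, and Adamts9, a secreted metalloprotease, by 1.56 ± 0.35. In glioma 3108C, Adamts9 was at 185 CPM, against 52.0 to 79.4 CPM in the other glioma libraries and 31.6 to 35.5 CPM in surrounding cells. Scml4 rose by 1.5 ± 0.38, a call lost in 4 of the 8 fits that each left out 1 library (adjusted p up to 0.0765). Without both codes 3108D and 3109D, Vit and Fam174b kept their calls and the other genes named in this and the preceding paragraph did not.

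**Figure D2:**
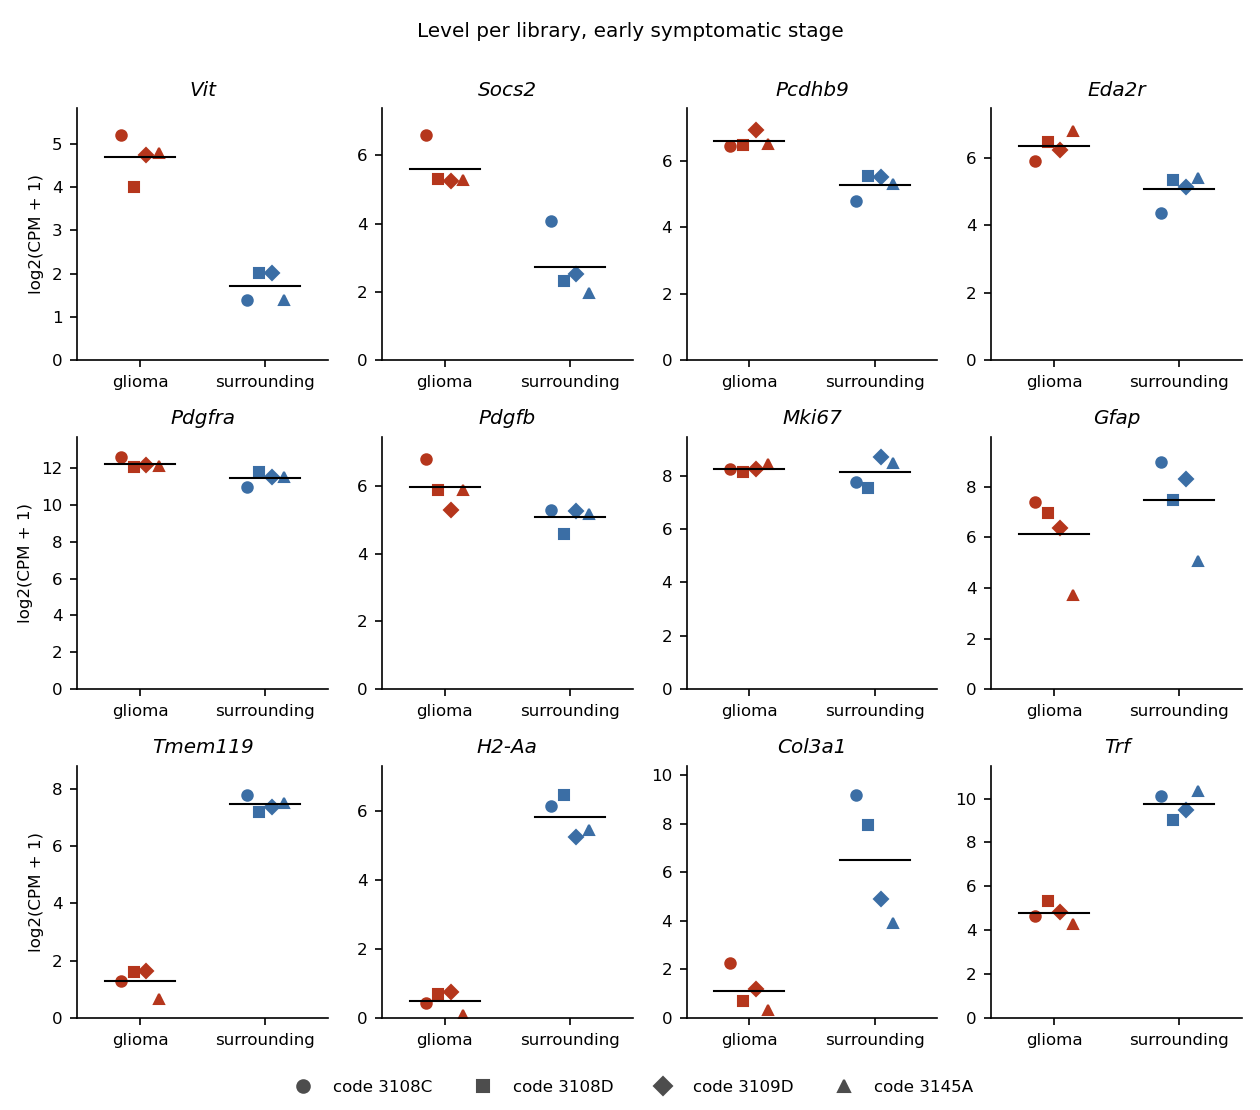
Levels of 12 genes as log2(CPM + 1), with the 4 glioma libraries left of the 4 surrounding libraries, 1 marker shape per mouse code and a line at the mean of each group. Vit, Socs2, Pcdhb9 and Eda2r are higher in every glioma library, Tmem119, H2-Aa, Col3a1 and Trf are lower in every one, and the groups overlap for Mki67 and Gfap.

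Among the PDGF genes, Pdgfrb of vessel cells fell most, and neither the transferred ligand nor Pdgfra was called. Pdgfb, the ligand whose gene was transferred, had 109, 57.3, 38.2 and 57.6 CPM in glioma cells, against 37.8, 22.9, 37.1 and 34.9 CPM in surrounding cells. The glioma libraries were higher without overlap, by little in 3109D, and the fold change of 0.98 ± 0.31 missed the threshold (adjusted p = 0.061; 0.00738 with the exchanged block). The labels do not say whether transcripts of the introduced PDGFB are counted as mouse Pdgfb. Pdgfra, the receptor that marks OPC, had 6118, 4249, 4533 and 4453 CPM in glioma cells, against 2024, 3513, 2855 and 2887 CPM in surrounding cells (0.78 ± 0.24, adjusted p = 0.0575, and 0.0491 with the exchanged block). The groups did not overlap, and surrounding 3108D came closest to the glioma libraries.

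Of the 6 PDGF ligands and receptors none rose and 3 fell, with a list median of -0.47, and with the exchanged block 2 rose and 3 fell. Pdgfrb, the receptor of pericytes, had 1.71, 0.101, 1.32 and 0.134 CPM in glioma cells, against 99.2, 56.2, 11.0 and 10.9 CPM in surrounding cells (-5.75 ± 0.99, adjusted p = 0.00211). Pdgfa, the ligand made by neurons and glia, fell by 0.92 ± 0.27 (adjusted p = 0.0433), a call lost in 6 of the 8 fits without 1 library (adjusted p up to 0.126). Pdgfd had 3 counts in all glioma libraries together, and the CPM of surrounding cells was 25.6 times as high (95% interval 8.36 to 128, counting error only). Pdgfc gave -0.02.

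OPC markers had small positive fold changes, most of them not called in the unpaired fit. All 20 were tested, all 20 had a positive fold change, the median was 0.72, and 4 rose: Lhfpl3 (0.99 ± 0.28, adjusted p = 0.0356), a tetraspan membrane protein, Cacng4 (0.76 ± 0.22, adjusted p = 0.0439), an auxiliary subunit of AMPA receptors, Opcml (0.60 ± 0.18, adjusted p = 0.0465), an adhesion molecule, and Gpr37l1 (0.75 ± 0.22, adjusted p = 0.0466), an orphan receptor of glia. Each of the 4 lost the call in 5 to 7 of the 8 fits without 1 library (adjusted p up to 0.14). With the exchanged block 15 of the 20 rose. Mean log2(CPM + 1) over the list was 8.59 to 9.19 in glioma libraries and 7.59 to 8.88 in surrounding libraries, the highest of the surrounding ones being 3108D. The lineage factors Olig2 (0.79 ± 0.27, adjusted p = 0.0805) and Sox10 (0.68 ± 0.22, adjusted p = 0.0661) stayed short of the threshold, which both passed with the exchanged block (adjusted p = 0.0104 and 0.0319).

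Clustered protocadherins, adhesion molecules that give a cell its surface identity, were the list with most genes that rose in the unpaired fit. All 21 Pcdhb genes were tested, all had a positive fold change, 10 rose and the median was 0.94. Pcdhb9 had 87.3, 88.5, 120 and 89.3 CPM in glioma cells, against 26.6, 45.4, 45.1 and 38.8 CPM in surrounding cells (1.3 ± 0.21, adjusted p = 0.00154). Pcdhb5 had 40.8, 40.2, 38.0 and 32.0 CPM in glioma cells, against 9.94, 13.3, 15.1 and 9.65 CPM in surrounding cells (1.65 ± 0.22, adjusted p = 3.37e-04). Neither gene had overlapping groups. Pcdhb2 rose by 1.65 ± 0.38 (adjusted p = 0.014, and 0.0517 without glioma 3109D). The number that rose was 4 to 11 when 1 library was left out, 17 with the exchanged block and 0 without both codes. The Pcdhb genes lie side by side on chromosome 18 and resemble each other closely, so the estimate that divides reads among them is uncertain.

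Ion channels and synaptic genes of OPC gave 3 of 23 that rose, with a median of 0.68. Lrrtm1, a synaptic adhesion protein, had 27.7, 20.6, 17.2 and 27.3 CPM in glioma cells, against 6.04, 11.7, 12.1 and 9.92 CPM in surrounding cells (1.22 ± 0.28, adjusted p = 0.0123). The potassium channel genes Kcnd3 (0.97 ± 0.23, adjusted p = 0.0148) and Kcnd2 (0.89 ± 0.27, adjusted p = 0.0464) rose too. Kcnd3 lost its call without surrounding 3109D (adjusted p = 0.0525) and Kcnd2 in 7 of the 8 fits (up to 0.12). Of 17 glutamate receptor genes tested out of 18, 2 rose, Grik1 (1.09 ± 0.24, adjusted p = 0.00952), a kainate receptor subunit, and Grin1 (0.79 ± 0.20, adjusted p = 0.0208), the shared subunit of NMDA receptors. The call of Grin1 was lost in 3 of the 8 fits (up to 0.0557). Grm3, a metabotropic receptor of astrocytes, fell (-2.62 ± 0.54, adjusted p = 0.00663). With the exchanged block 16 of the channel genes rose, and 11 glutamate receptor genes rose and 3 fell.

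Feedback genes of the MAPK pathway, which growth factor receptors switch on, were split. Spry1, an inhibitor of receptor tyrosine kinase signals, had 543, 332, 314 and 325 CPM in glioma cells, against 185, 215, 185 and 178 CPM in surrounding cells (0.99 ± 0.21, adjusted p = 0.00808). Glioma 3108C was far above the other glioma libraries, which were themselves clear of the surrounding ones. Its relative Spry2 rose by 0.71 ± 0.20 (adjusted p = 0.04, lost in 7 of the 8 fits without 1 library, up to 0.118). Lif, a cytokine, fell by 2.30 ± 0.52 (adjusted p = 0.0114). In all, 2 of 16 rose and 1 fell, with a median of 0.49, and with the exchanged block 8 rose and 1 fell.

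Few genes of cell division were called in the unpaired fit, but nearly all mitosis genes had a positive fold change. Mki67, a marker of proliferating cells, had 299, 279, 306 and 344 CPM in glioma cells, against 214, 185, 411 and 358 CPM in surrounding cells (0.07 ± 0.26, adjusted p = 0.897). The surrounding libraries 3109D and 3145A were above all glioma libraries, and the other 2 were below them. Of 26 mitosis genes 3 rose and 1 fell, with a median of 0.76, and 25 had a positive fold change. Among all genes tested 2.32% rose and 12.3% fell. Ube2c, which loads ubiquitin for the anaphase promoting complex, had 41.5, 24.7, 26.1 and 63.2 CPM in glioma cells, against 14.2, 15.6, 17.6 and 18.8 CPM in surrounding cells (1.23 ± 0.30, adjusted p = 0.0192). Cenpf, a kinetochore protein, rose by 0.76 ± 0.22 (adjusted p = 0.0429), and Prc1, which bundles the spindle midzone, by 0.86 ± 0.25 (adjusted p = 0.0447). These 3 calls were lost in 3, 7 and 6 of the 8 fits without 1 library. Anln, an actin-binding protein of the cleavage furrow that oligodendrocytes also make in myelin, had 25, 22.9, 26.0 and 47.6 CPM in glioma cells, against 69.3, 71.3, 96.9 and 196 CPM in surrounding cells (-1.83 ± 0.38, adjusted p = 0.00644). No DNA replication gene of 26 was called (median 0.31). With the exchanged block 14 mitosis and 7 replication genes rose.

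p53 targets moved in both directions. Eda2r, a death receptor of the TNF receptor family, had 58.6, 87.2, 73.9 and 110 CPM in glioma cells, against 19.6, 39.7, 34.3 and 41.7 CPM in surrounding cells (1.28 ± 0.27, adjusted p = 0.00819). No glioma library was as low as any surrounding one. Zmat3, an RNA-binding protein (0.69 ± 0.17, adjusted p = 0.0208), and Trp53inp1, a stress protein (0.61 ± 0.17, adjusted p = 0.0378), rose as well, calls lost in 3 and 7 of the 8 fits without 1 library. Btg2, an antiproliferative and also immediate early gene, had 2.89, 3.83, 4.34 and 7.24 CPM in glioma cells, against 67.6, 38.8, 79.4 and 72.5 CPM in surrounding cells (-3.80 ± 0.34, adjusted p = 2.89e-05). Perp, an adhesion protein of desmosomes (-2.87 ± 0.68, adjusted p = 0.0155, and 0.0539 without glioma 3109D), and Pmaip1, the apoptosis protein Noxa (-1.62 ± 0.40, adjusted p = 0.0196, up to 0.0609 when 1 library was left out), fell. Of the 19 tested out of 20, 3 rose and 3 fell (median 0.53), and 10 rose and 3 fell with the exchanged block. The shares over all genes tested were 2.32% that rose and 12.3% that fell in the unpaired fit. With the exchanged block they were 12.2% and 16.8%. Cdkn2a, whose locus encodes the 2 tumour suppressors p16INK4a and p19ARF, not told apart here, had 13.5, 11.3, 10.6 and 18.2 CPM in glioma cells, against 4.15, 6.67, 5.84 and 7.77 CPM in surrounding cells (1.13 ± 0.29, adjusted p = 0.0236, up to 0.0803 when 1 library was left out). Cdk6, a kinase of the G1 phase, fell by 3.69 ± 0.67 (adjusted p = 0.00285). They were the only 2 of 22 cell cycle control genes called in the unpaired fit, with a median of 0.26, and with the exchanged block 9 rose and 2 fell.

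The calls of cholesterol synthesis genes depended on how the libraries were paired. Fdps, which makes farnesyl diphosphate, had 60.5, 117, 42.1 and 246 CPM in glioma cells, against 29.3, 28.1, 73.5 and 103 CPM in surrounding cells. The groups overlapped, and both 3145A libraries were the highest of their groups. Paired as coded, the log2 difference of CPM + 1 was 1.02 in 3108C, 2.02 in 3108D, -0.79 in 3109D and 1.25 in 3145A. With the surrounding libraries of 3108D and 3109D exchanged, the values of glioma 3108D and 3109D became 0.66 and 0.57, so that all 4 were positive. The unpaired fold change of Fdps was 0.99 ± 0.57 (adjusted p = 0.309), and 0.00361 was the adjusted p with the exchanged block. Of 19 tested genes of the pathway out of 20, all had a positive fold change with a median of 0.74. None was called without the block, 2 with the block as coded and 17 with the codes exchanged.

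**Figure D3:**
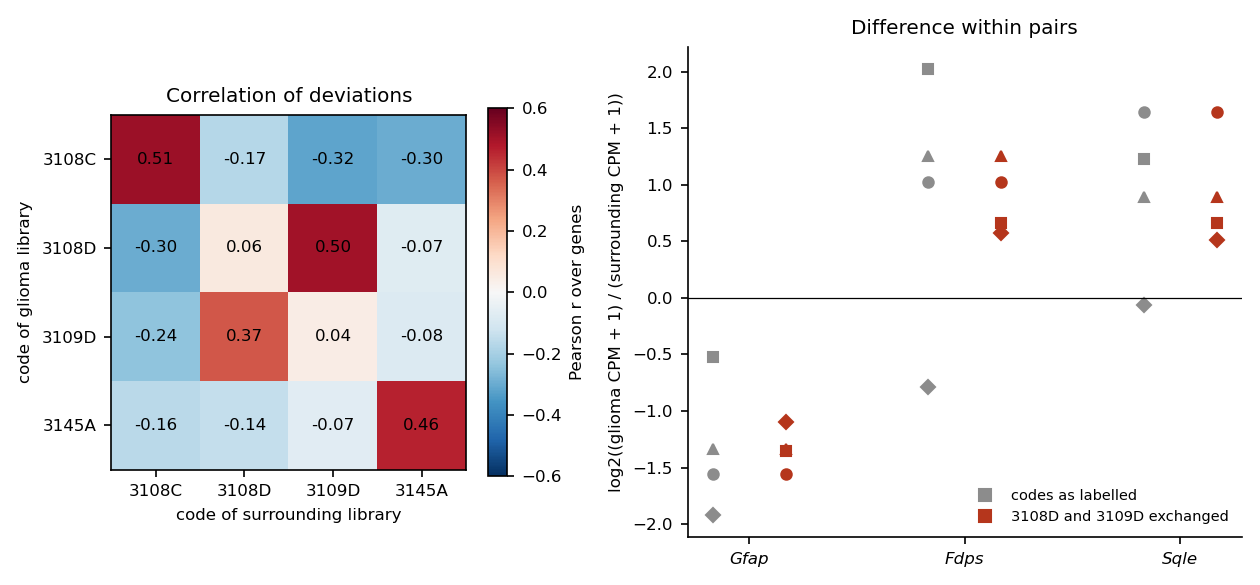
Left, correlation, over all genes tested in the 8 libraries, of the deviations of each glioma library (rows) and each surrounding library (columns) from its group mean. Right, log2 difference of CPM + 1, glioma minus surrounding, within each code for Gfap, Fdps and Sqle, as coded and with 3108D and 3109D exchanged. The high correlations lie off the diagonal for those codes, and the differences of each gene shown draw closer to each other after the exchange. Those of the mitosis gene Kif11, not shown, ran from 0.67 to 1.9 in both pairings. The exchange was chosen from these same libraries.

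Markers of immature neurons and neural progenitors moved in both directions. Of 6 neuroblast genes tested out of 12, Tubb2b, a tubulin (0.87 ± 0.22, adjusted p = 0.0231), and Igfbpl1, a secreted binding protein (1.64 ± 0.47, adjusted p = 0.0416), rose and Cd24a, a surface glycoprotein, fell (-3.54 ± 0.54, adjusted p = 9.17e-04). The call of Tubb2b was lost in 4 and that of Igfbpl1 in 7 of the 8 fits without 1 library. Under the exchanged block 4 of the 6 rose and 1 fell. Of 12 neural progenitor genes, the stem cell factor Sox2 rose (0.73 ± 0.21, adjusted p = 0.0366, lost in 7 of the 8 fits). Id1 and Id3, inhibitors of differentiation factors, and Prom1 fell by 2.56, 2.47 and 1.98. Of the 12, 3 rose and 4 fell with the exchanged block. Among neuron genes, Thy1, a glycoprotein of neurons and T cells, fell (-2.92 ± 0.86, adjusted p = 0.0458, lost in 6 of the 8 fits and with the exchanged block, where the adjusted p was 0.0528). Its groups overlapped. It was the only 1 of 13 tested out of 15 that was called in the unpaired fit, with a median of -0.45, and with the exchanged block 3 rose and 3 fell.

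Microglia markers fell together. All 15 microglia markers fell, with a median of -6.18, and all 15 fell in each fit that left out 1 library and without both codes. Tmem119, a membrane protein typical of resident microglia, had 1.44, 2.02, 2.09 and 0.603 CPM in glioma cells, against 222, 144, 166 and 180 CPM in surrounding cells (-6.87 ± 0.37, adjusted p = 2.70e-06). Selplg, the ligand of P-selectin, fell by 6.58 ± 0.30, and P2ry12, a purinergic receptor of resting microglia, by 6.49 ± 0.35. Cx3cr1, the fractalkine receptor, fell by 6.14 ± 0.49. Sall1, a transcription factor of microglia, stood apart with 82.9, 51.5, 76.3 and 68.2 CPM in glioma cells, against 206, 160, 269 and 249 CPM in surrounding cells (-1.66 ± 0.22, adjusted p = 3.53e-04). The pan-leukocyte gene Ptprc had 2.16, 1.72, 3.72 and 1.54 CPM in glioma cells, against 291, 122, 236 and 171 CPM in surrounding cells (-6.47 ± 0.40, adjusted p = 4.57e-06).

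Genes of other myeloid cells fell as well. Of 12 monocyte genes 9 fell, with a median of -5.47 (-5.38 with the gene at 0 in glioma cells set at its bound), led by Ccr2, a chemokine receptor (-7.00 ± 0.61). Fcgr4, an Fc receptor, and Chil3, a lectin of activated macrophages, fell by 6.14 ± 0.61 and 6.71 ± 0.69. Of 10 border macrophage genes 5 passed the low-count filter. Of these Mrc1, the mannose receptor, F13a1, Ms4a7 and Stab1 fell by 5.83, 5.64, 4.19 and 5.27, while Cd163, a scavenger receptor, rose. Surrounding counts carried Ccr2, Fcgr4, Chil3, Mrc1 and F13a1 past the filter. Cd163 had 26.9, 25.4, 19.2 and 25.1 CPM in glioma cells, against 15.6, 11.2, 13.5 and 11.0 CPM in surrounding cells (0.91 ± 0.22, adjusted p = 0.0153, and up to 0.0632 when 1 library was left out). The neutrophil list had 5 of 10 members tested, all lower. Csf3r, the receptor of a granulocyte growth factor, had 0.451, 0.605, 1.01 and 1.27 CPM in glioma cells, against 76.0, 55.3, 64.5 and 73.5 CPM in surrounding cells. Mean log2(CPM + 1) over the 5 was 0.21 to 0.43 in glioma libraries and 2.37 to 4.26 in surrounding ones. Surrounding counts therefore carried these genes past the filter, which favours lower values in glioma cells. In the dendritic cell list 3 of 5 tested out of 11 fell: Itgax, an integrin (-6.31), Flt3, a growth factor receptor (-4.54), and Irf8, a transcription factor of myeloid cells (-2.64).

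T and NK cell transcripts were scarce in both groups, whereas B cell genes were found in surrounding cells. Of 17 T and NK cell genes only Klrb1c and Foxp3 passed the filter, and neither was called (adjusted p = 0.633 and 0.625). In the fit of all 24 libraries, where counts of any stage could carry a gene past the filter, 16 were tested. Their early symptomatic median there was -3.74, and 5 fell. Cd3e, Cd3d, Cd3g and Trac, parts of the T cell receptor complex, had no count in any glioma library and at most 0.755 CPM in a surrounding one. Of 8 B cell genes 3 were tested and fell. Their mean log2(CPM + 1) was 0.18 to 0.6 in glioma libraries and 3.57 to 5.27 in surrounding ones. Surrounding counts thus carried them past the filter, which favours lower values in glioma cells. Ighm, the heavy chain of IgM, had 0.451, 1.21, 0.543 and 0.804 CPM in glioma cells, against 319, 80.6, 88.6 and 93.9 CPM in surrounding cells (-7.59 ± 0.62, adjusted p = 1.75e-05), highest in surrounding 3108C.

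Signals and receptors of these cells followed the same direction. Il1b, an inflammatory cytokine, had 0, 0.605, 0.0776 and 0.201 CPM in glioma cells, against 33.5, 28.1, 36.0 and 46.5 CPM in surrounding cells (-7.36 ± 0.58, adjusted p = 1.51e-05). Osm, a cytokine of macrophages, fell by 8.11 ± 0.81. So did Ccl3 and Ccl4, chemokines of macrophages, with fold changes of -7.21 ± 0.78 and -7.02 ± 0.60. In surrounding cells Ccl3 was at 19.0 CPM in 3108D and at 137 to 158 CPM in the other 3. Of 18 chemokines and cytokines tested out of 23, 16 fell, with a median of -5.85. Of 16 complement genes tested out of 17, 13 fell (median -5.33), among them Itgam, a chain of complement receptor 3 on myeloid cells, with 6.49, 5.15, 11.2 and 6.7 CPM in glioma cells, against 890, 345, 495 and 603 CPM in surrounding cells. Of 14 checkpoint and suppressive genes tested out of 19, 12 fell (median -4.54), with Lag3, an inhibitory receptor, at 2.07, 1.31, 1.86 and 0.938 CPM in glioma cells, against 302, 93.8, 95.1 and 96.2 CPM in surrounding cells.

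Other leading genes that fell were Hcar2, a receptor for hydroxybutyrate (-7.57 ± 1.09), Trem1, an activating receptor of myeloid cells (-7.53 ± 1.49), Mlxipl, a glucose-responsive transcription factor (-7.34 ± 0.58), Rgs1, a regulator of G protein signals (-7.13 ± 0.61), and Gal3st4, a sulfotransferase (-7.12 ± 0.77). Trem1 was at 61.2 CPM in surrounding 3108C and at 1.67 to 4.55 CPM in the other surrounding libraries. Slco4a1, an organic anion transporter, had 2 counts in all glioma libraries, and the CPM of surrounding cells was 353 times as high (95% interval 97.3 to 2922, counting error only). It was likewise at 55.4 CPM in surrounding 3108C, against 3.06 to 5.27 CPM in the other 3. Foxq1, a forkhead transcription factor, had no count in any glioma library and 126 in surrounding libraries, at least 52.0-fold lower in glioma cells against a floor of 3 counts over the group. It was one of 17 tested genes without any glioma count, and all 17 fell, being genes that only surrounding counts had carried past the filter.

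MHC class II genes, which present antigens to helper T cells, were close to 0 in the glioma libraries. Cd74, the invariant chain that guards class II molecules, had 0.541, 1.11, 0.698 and 0.938 CPM in glioma cells, against 213, 196, 86.7 and 104 CPM in surrounding cells (-7.49 ± 0.42, adjusted p = 3.15e-06). H2-Aa, an alpha chain, had 0.361, 0.605, 0.698 and 0.067 CPM in glioma cells, against 69.6, 86.4, 36.9 and 42.5 CPM in surrounding cells (-7.10 ± 0.53, adjusted p = 1.19e-05). H2-Eb1, a beta chain, fell by 6.21 ± 0.46, H2-Ob, a chain of the modulator DO, by 7.24 ± 0.65, and Ctss, the protease that cleaves the invariant chain, by 6.62 ± 0.51. Of the 10 genes of the list 9 fell, with a median of -6.26. The exception was Ciita, the coactivator that switches class II genes on, with 0.992, 1.11, 1.71 and 1.01 CPM in glioma cells, against 2.52, 8.04, 2.22 and 2.05 CPM in surrounding cells (-1.61 ± 0.54, adjusted p = 0.0743, and 0.0289 with the exchanged block). H2 genes resemble each other, and the division of their reads is uncertain.

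Promoters of 3 class II genes are shown because these genes fell together and Ciita acts through a promoter module they share. The stretches are from RefSeq on GRCm38.p6, lie within the 250 bases before the start of the gene and are printed 5′ to 3′ on the strand of the gene: H2-Aa at chr17:34287827-34287932 (minus), H2-Eb1 at chr17:34305772-34305866 (plus) and H2-Ob at chr17:34238787-34238892 (plus). Capitals mark GATTGG, the core of the Y box that the factor NF-Y binds, or CCAATC, the same letters on the other strand.
H2-Aa: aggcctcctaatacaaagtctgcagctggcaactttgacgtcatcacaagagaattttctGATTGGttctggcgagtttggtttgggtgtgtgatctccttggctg
H2-Eb1: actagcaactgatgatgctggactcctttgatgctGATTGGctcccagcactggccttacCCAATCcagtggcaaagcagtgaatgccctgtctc
H2-Ob: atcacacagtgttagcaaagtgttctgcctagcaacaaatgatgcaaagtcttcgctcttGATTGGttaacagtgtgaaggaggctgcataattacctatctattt
H2-Aa and H2-Ob hold 1 match and H2-Eb1 holds 2, one on each strand. A match on either strand, in any promoter of a gene, was found in 7 of the 8 genes of the list that the RefSeq table covers. Counted by promoter, it was found in 14.6% of the 32851 in that table. H2-DMa has a promoter with a match, 199 bases before the start, and another without. Ctss had none. The shorter CCAAT, which GATTGG contains on its other strand, was found in 7 of the 8 and in 33.8% of all promoters. GGAAGT and GAGGAAGT, also searched, were found in 1 and 0 of the 8, and in 19.7% and 2.4% of all promoters. A match is a description of the sequence and no evidence of binding.

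MHC class I genes fell by less. Of 18 genes 12 fell, none rose, and the median was -2.09. B2m, the light chain shared by class I molecules, had 187, 145, 154 and 180 CPM in glioma cells, against 1745, 619, 1047 and 981 CPM in surrounding cells (-2.72 ± 0.30, adjusted p = 1.12e-04). H2-K1, a heavy chain, fell by 3.03 ± 0.35 and Tapbp, which loads peptides, by 2.81 ± 0.33. Of 26 interferon response genes 13 fell (median -2.08), those of smallest p being Gbp2, a GTPase (-5.20 ± 0.47), and the antiviral membrane proteins Ifitm3 (-4.25 ± 0.42) and Bst2 (-4.79 ± 0.54). With the exchanged block 16 class I and 21 interferon genes fell.

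Vessel and meningeal genes fell as well, with unequal levels between the surrounding libraries. Of 16 endothelial genes 14 fell, with a median of -5.38. Pecam1, an adhesion molecule of endothelium, had 1.35, 0.504, 0.931 and 0.201 CPM in glioma cells, against 56.5, 18.5, 16.8 and 21.9 CPM in surrounding cells (-5.25 ± 0.61, adjusted p = 1.50e-04). Slco1a4, a transporter of the blood-brain barrier, had 1 count in all glioma libraries, and the CPM of surrounding cells was 950 times as high (95% interval 170 to 37579, counting error only). Vwf, the von Willebrand factor (-0.15, adjusted p = 0.819), and Mfsd2a, a lipid transporter of the barrier (0.94, adjusted p = 0.249, and 0.00705 with the exchanged block), were the 2 not called.

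Of 11 fibroblast and meningeal genes tested out of 13, 10 fell (median -5.66), all but Pdgfra, which OPC share. Col3a1, a fibrillar collagen, had 3.79, 0.605, 1.32 and 0.268 CPM in glioma cells, against 579, 247, 29.1 and 14.1 CPM in surrounding cells (-7.20 ± 1.31, adjusted p = 0.003). The surrounding libraries 3108C and 3108D held far more than the other 2, while the glioma library 3108C was the highest of its group. Without both codes 3108D and 3109D, 1 of the 10 was called. Collagen and matrix genes had 14 of 28 that fell (median -2.22), and 2 without both codes. In the list of 28, 4 rose and 14 fell with the exchanged block. Pericyte and smooth muscle genes had 8 of 10 tested out of 13 that fell (median -3.22), with Anpep, an aminopeptidase, at -7.17 ± 0.94. Of this list 6 to 8 fell when 1 library was left out, and 2 without both codes. Of 12 ependymal and choroid plexus genes 3 were tested, and Rsph1, a cilium protein, fell (-3.34 ± 0.85, adjusted p = 0.0225, lost in 3 of the 8 fits without 1 library), with 2 that fell under the exchanged block. Ttr, the transport protein of the choroid plexus, had 0.451, 12.6, 1.09 and 0.268 CPM in glioma cells, against 4.66, 6.14, 319 and 15.2 CPM in surrounding cells, and was not called (adjusted p = 0.0852), but fell with the exchanged block (adjusted p = 4.78e-04). Glioma 3108D and surrounding 3109D, the pair after the exchange, were the highest of their groups. None of 4 erythrocyte genes tested out of 7 was called, and 3 fell with the exchanged block. Hba-a1 had 0.271, 8.27, 5.43 and 1.07 CPM in glioma cells, against 4.40, 12.6, 47.1 and 10.2 CPM in surrounding cells (adjusted p = 0.134, and 0.00341 with the exchanged block).

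Most genes of mature oligodendrocytes fell in glioma cells, whereas most of the immature oligodendrocyte list was not called. Of 12 immature oligodendrocyte genes 3 fell (median -0.40): Enpp6, a choline phosphodiesterase (-3.20 ± 0.73), Nkx6-2, a homeobox factor (-4.60 ± 0.60), and Myrf, the factor that starts myelination (-2.40 ± 0.44). Under the exchanged block 5 fell and 1 rose, Fyn, a kinase (0.53 ± 0.21, adjusted p = 0.132, and 0.0352 with that block). Of 16 mature oligodendrocyte genes 12 fell, with a median of -4.24. Trf, which encodes transferrin, had 24.4, 39.8, 27.7 and 18.5 CPM in glioma cells, against 1104, 525, 701 and 1292 CPM in surrounding cells (-5.04 ± 0.38, adjusted p = 1.21e-05). Mag, a myelin glycoprotein, had 11.2, 12.0, 6.75 and 3.89 CPM in glioma cells, against 154, 157, 181 and 348 CPM in surrounding cells (-4.64 ± 0.43, adjusted p = 3.42e-05). Mal, a myelin proteolipid, fell by 5.08 ± 0.57, whereas Mbp, the myelin basic protein, gave -2.12 and missed the threshold (adjusted p = 0.0509), which it passed with the exchanged block (adjusted p = 0.00317). With that block 15 of the 16 fell.

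Of 15 astrocyte genes 4 fell, with a median of -1.24: Gja1 (-3.90 ± 0.56) and Gjb6 (-3.47 ± 0.75), which form gap junctions, Mlc1 (-1.98 ± 0.53, lost in 5 of the 8 fits without 1 library, up to 0.0804), a membrane protein, and Aqp4 (-1.76 ± 0.41), the water channel. The list was mixed, with a positive fold change for 6 of the 15, none of them called. Gfap, the astrocyte filament, had 168, 123, 82.2 and 12.3 CPM in glioma cells, against 497, 177, 314 and 32.7 CPM in surrounding cells. Both 3145A libraries were the lowest of their groups and both 3108C libraries the highest, and the unpaired fold change of -1.40 ± 0.79 was not called (adjusted p = 0.295). Paired as coded, the log2 differences of CPM + 1 were -1.56, -0.52, -1.92 and -1.34. With the codes exchanged, a pairing chosen from these libraries, they were -1.56, -1.35, -1.10 and -1.34. The exchanged block gave -1.36 (adjusted p = 2.15e-04). With it 9 of the 15 fell.

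**Figure D4:**
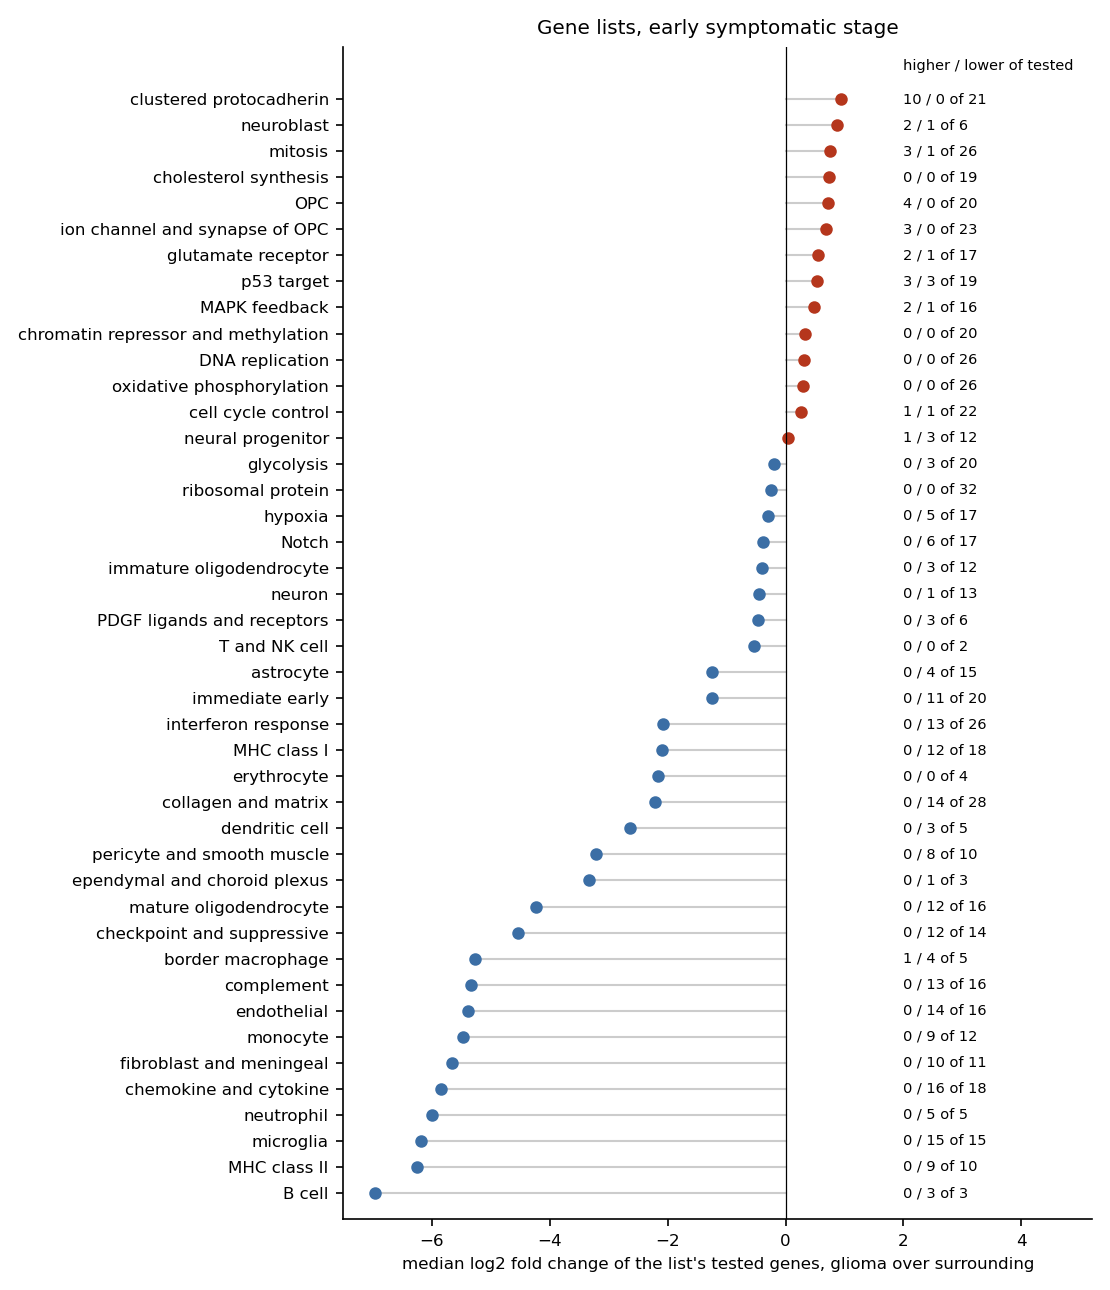
Median log2 fold change of glioma over surrounding cells for each of the 43 gene lists, with the number of tested members called higher and lower beside it. The microglia, MHC class II, endothelial and mature oligodendrocyte lists lie at -4.24 or lower, while the OPC, cholesterol synthesis, mitosis, neuroblast and clustered protocadherin lists lie between 0.72 and 0.94, against 0.07 for all genes tested.

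Immediate early genes, which dissociation and stress switch on, were lower in glioma cells. Of 20 genes 11 fell, with a median of -1.25. Zfp36, which destabilises cytokine mRNA, had 11.2, 11.0, 8.46 and 9.45 CPM in glioma cells, against 448, 117, 303 and 243 CPM in surrounding cells (-4.79 ± 0.39, adjusted p = 1.75e-05). Atf3, a stress transcription factor, fell by 5.73 ± 0.53. Among the surrounding libraries, 3108D was the lowest for all 11. The near-identical heat shock genes Hspa1a and Hspa1b fell by 4.39 and 4.23. Microglia markers moved with these genes, with summed levels of 209 to 327 CPM over the 15 in glioma libraries and 5709 to 12257 CPM in surrounding ones, and their part in the result was not tested.

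In the metabolic lists no gene rose in the unpaired fit, in which 2.32% of all genes tested rose and 12.3% fell. Of 17 hypoxia genes tested out of 18, 5 fell (median -0.29), those of smallest p being Ndrg1, a stress protein also of oligodendrocytes (-4.58 ± 0.50), Lox, an enzyme that cross-links collagen (-4.41 ± 0.62), and Slc2a1, the glucose transporter of the blood-brain barrier (-2.49 ± 0.38). In glycolysis 3 of 20 fell (median -0.20): Hk2, a hexokinase (-4.28 ± 0.35), Slc16a3, a lactate exporter (-2.87 ± 0.53), and Pfkfb3, a regulator of flux (-2.73 ± 0.45). None of 26 oxidative phosphorylation genes (median 0.29) and none of 32 ribosomal protein genes (median -0.25) was called by edgeR. With the exchanged block 4 oxidative phosphorylation genes rose and no ribosomal gene was called. Of 17 Notch pathway genes 6 fell (median -0.39), with the receptor Notch2 at 2.62, 2.62, 5.74 and 3.08 CPM in glioma cells, against 134, 54.1, 58.8 and 57.7 CPM in surrounding cells (-4.42 ± 0.41). The ligand Jag2 fell by 2.54 ± 0.43, and Rbpj, the factor through which Notch acts, by 0.91 ± 0.20. Under the exchanged block 2 Notch pathway genes rose and 8 fell. No chromatin repressor or methylation gene of 20 was called (median 0.33), and 6 rose with the exchanged block.

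The early symptomatic difference was set beside those of the asymptomatic and the late symptomatic stage in 1 fit of all 24 libraries, with 18810 genes tested. Stage cannot be told apart from the day and the code prefix, which differ between stages. All asymptomatic mice were killed at fewer days than any early symptomatic mouse, and all late symptomatic mice at more. Of the early symptomatic mice, 3145A lay nearest in days to the asymptomatic ones. The column name of the late glioma library 3057E reads RED, whereas those of all other glioma libraries read GFP. Any effect of that label was not tested. In that fit 244 genes rose and 2348 fell in glioma cells at the asymptomatic stage, 199 and 2337 at the early symptomatic stage, and 2899 and 3739 at the late symptomatic stage. No gene (0.0%) passed edgeR's test for a difference between the early symptomatic and the asymptomatic fold change, with 290 genes at an unadjusted p under 0.05, 2 called by DESeq2 and 0 by limma voom. Between the early and the late symptomatic stage no gene (0.0%) passed either, with 1167 at an unadjusted p under 0.05 and a smallest adjusted p of 0.209. For that difference DESeq2 called 39 and limma voom with sample weights 1124, and edgeR called 92 without glioma 3057E, 92 without surrounding 3057E and 1 without surrounding 3108D.

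Ciita had the smallest p for a difference from the late stage (1.24e-05, adjusted p = 0.209). In the fit of all 24 libraries its fold change was -4.70 ± 0.64 at the asymptomatic and -6.23 ± 0.67 at the late symptomatic stage, and the early one lay 3.16 ± 0.83 above the asymptomatic and 4.69 ± 0.84 above the late one. In surrounding cells it lay at 2.73 to 30.4 CPM at the asymptomatic, 2.05 to 7.53 CPM at the early and 29.3 to 68.0 CPM at the late stage, against at most 1.74 CPM in any glioma library. Itgb7, an integrin of lymphocytes, and Cd8a, a T cell coreceptor, were next, and the medians of their surrounding levels were also lowest at the early stage. Cd8a lay at 0.864 to 2.09 CPM in asymptomatic, 0.176 to 0.599 CPM in early and 1.56 to 11.4 CPM in late surrounding cells.

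Genes that had risen at the early stage differed in how their values lay elsewhere. Vit gave 2.43 ± 0.71 at the asymptomatic and 3.24 ± 0.73 at the late stage. Socs2 gave 2.43 ± 0.60 at the asymptomatic and 0.60 ± 0.57 at the late stage, and edgeR's test of early against late gave an adjusted p of 0.573. Eda2r gave 1.52 ± 0.63 and 0.01 ± 0.63, and it lay at 39.9 to 87.2 CPM in asymptomatic, 57.8 to 108 CPM in early and 2.87 to 38.4 CPM in late glioma cells. Mki67, not called at the early stage, gave 1.39 ± 0.57 at the asymptomatic and 1.59 ± 0.57 at the late stage, and Pdgfb gave -0.05 ± 0.42 and -0.08 ± 0.42. None of these differences from the early stage passed the adjusted threshold.

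Among the lists, in that fit, the median of the clustered protocadherins was 1.21, 1.0 and 1.90 at the asymptomatic, early and late symptomatic stages, with 7, 2 and 17 genes called higher. OPC genes gave 0.68, 0.78 and 1.49, with 0, 0 and 14 called. Mitosis genes gave 1.25, 0.80 and 1.64, with 5, 0 and 20 called. p53 targets gave 0.25, 0.59 and -0.54, with 3, 1 and 1 called higher and 2, 3 and 8 called lower. The microglia list gave -4.57, -6.12 and -4.04 and the endothelial list -2.83, -5.34 and -4.79. Late glioma libraries were unequal for microglia genes. There Cx3cr1 had a median of 5.17 and a maximum of 275 CPM, against 10.4 and 18.9 CPM in early glioma libraries. Selplg had a median of 1.72 and a maximum of 51.3 CPM in late ones, against 3.02 and 4.97 CPM in early ones. The part of this spread in the late value of the list was not tested. The medians of MHC class II genes lay close together, at -5.85, -6.22 and -5.65. All genes tested had medians of 0.02, 0.08 and 0.04. No difference between stages was tested for a list as a whole.

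**Figure D5:**
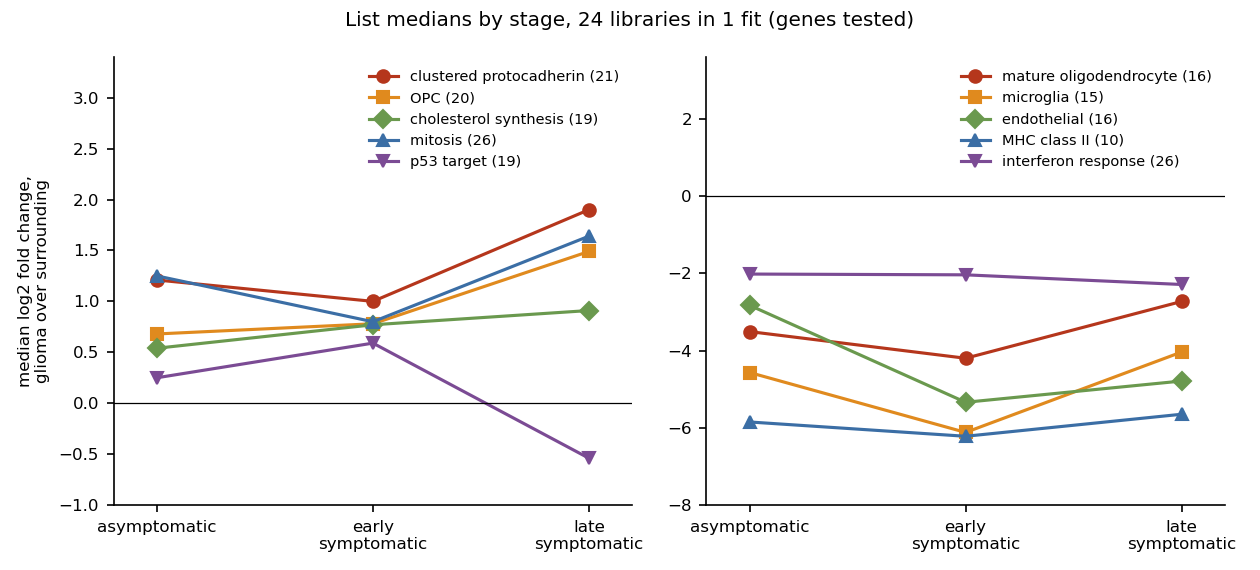
Median log2 fold change of glioma over surrounding cells in 10 gene lists at the asymptomatic, early symptomatic and late symptomatic stage, from the fit of all 24 libraries. Lists near or above 0 are on the left and lists far below 0 on the right. The early value of the microglia list is the lowest of its 3 stages, but late glioma libraries were unequal for its gene Cx3cr1 (3.04 to 275 CPM).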

How the data were processed

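Sorted glioma and surrounding cells were profiled by RNA-seq of polyA RNA. The authors deposited expected counts per gene. The submitters' processing notes name RSEM 1.3.1, STAR 2.7.5c and GRCm38. The annotation release and the strand setting are not given in the sources used here, so antisense and overlapping genes are uncertain. Expected counts were rounded for the tests, which changed a library total by at most 95.2 counts, and between 13.4% and 16.3% of the values of a library were not whole. No 2 libraries of a group were copies (lowest chi-square per degree of freedom 24.9). Coordinates come from GENCODE M21, which holds 98.6% of the 55938 identifiers.

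The 8 early symptomatic libraries entered an unpaired fit in edgeR 4.0.16 (R 4.3.3), scaled by TMM and filtered at its minimum count of 10, with the robust quasi-likelihood test. Stages were compared as interactions in a fit of all 24 libraries. Alternatives were DESeq2 1.42.0, voom with sample weights in limma 3.58.1, other scalings and filters, a fold limit of 2, all 24 libraries in 1 fit, each library left out, both codes 3108D and 3109D left out, and the mouse code as a block, as coded or with these codes exchanged. The pairing comes from the codes, which both libraries of a mouse share. As coded, the deviations of paired libraries correlated at 0.511, 0.0589, 0.0448 and 0.463, so the codes as given do not pair all libraries.

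Members, the 43 lists, the motif and the exchange were chosen with earlier results of these data known. By rule, the text names up to 12 called genes per direction of largest fold, with no overlap between groups and log2 CPM averaging 3 or more. It also names up to 3 genes of smallest p from each list, a few fixed genes and the leading interaction genes. Predicted genes were left out. Other list members are named where they were called or stand out, after their values were seen.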

Additional observations from a re-analysis of the deposited data

Results flagged for a closer look

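In 428 groups of 4 libraries, the named genes and lists were searched for a library far from the others of its group. The measure is the gap of log2(CPM + 1) between the highest or lowest library and its neighbour, divided by the whole range of the group, and values from 0.829 are given. Chance alone gives about 1 such group in 20, and no cause was tested. The ratios, from 32 groups, are grouped by library.

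Glioma 3108C stood apart for Socs2 (0.948), Spry1 (0.903) and Pcdhb6 (0.862). Glioma 3108D did so for Kcnd3 (0.892) and glioma 3109D for Pcdhb9 (0.931). In glioma 3145A it was the cytokine Lif (0.912), the cleavage furrow gene Anln (0.829) and the Polycomb gene Bmi1 (0.941), and the mean level of the astrocyte (0.833), neural progenitor (0.84) and immediate early (0.852) lists.

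Among surrounding libraries, 3108C stood apart for Atp10b (0.886), Slco4a1 (0.835), Gal3st4 (0.89), Stab1 (0.845), Ighm (0.89), Grin1 (0.918), Kcnd2 (0.948), Notch2 (0.909), Rbpj (0.865), Lag3 (0.979) and Def6 (0.84), and for the MAPK feedback list (0.861). Surrounding 3108D did so for the chemokines Ccl3 (0.933) and Ccl4 (0.954), Pdgfb (0.844), Ciita (0.87), Vamp8 (1.0) and Dpp4 (0.897), and for the microglia (0.838) and oxidative phosphorylation (0.833) lists. Surrounding 3109D did so for Prom1 (0.872).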

How the results depend on the processing

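The number of genes that rose depended most on the processing. It was 378, and became 85 at a fold of more than 2, 199 with all 24 libraries in 1 fit, 670 with limma voom, 732 with DESeq2, 1023 with the replicate block as coded and 1981 with the replicate block and exchanged codes. It ranged from 157 to 319 when 1 library was left out and was 6 without both codes. The number that fell, 2004, was 869 without both codes and 1850 to 2123 when 1 library was left out. All calls, 2382, were 4710 with the replicate block exchanged, 875 without both codes and 2050 to 2386 when 1 library was left out. The causes were not tested. Calls departing from the late stage, 0 by edgeR, were 1124 with limma voom, 39 with DESeq2, 2 with the replicate block exchanged and 0 to 92 when 1 library was left out, and those departing from the asymptomatic stage were 2 with DESeq2. Of the 167 named genes tested, 132 were called and 72 kept the call in every alternative run. None was counted as reversed, which took a call as well as a change of sign. Under the other scalings no list median changed sign. With 4 libraries a group, low counts in glioma cells limit the precision of the largest folds.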
